A study of Mus musculus with 15 samples.

Results

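The binding sites described here are those that the RNA-binding protein SAM68 (gene Khdrbs1) held at the downstream end of its target genes, in E14 mouse embryonic stem cells and in the embryoid bodies grown from them. A site was taken when its centre lay within the last 1 kb of the annotated span of its protein-coding gene, in genes of 10 kb or more. This gave 4787 sites of the 132293 in the study, 1199 on day 0, 1231 on day 3 and 2357 on day 10, at 4420 distinct positions in 2091 genes. The last 1 kb is an interval of the gene span in GRCm38 coordinates. Exon structure was not used here, so a site was not assigned to an exon, an intron or a 3′ UTR.

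SAM68 was mapped by iCLIP2, in which ultraviolet light fixes the protein to RNA and the crosslinked nucleotide is found because the cDNA ends beside it. Per the labels, the RNA was trimmed to fragments of 50 to 200 nt. The groups were unmodified E14 stem cells kept with LIF and 2i inhibitors at day 0, embryoid bodies (aggregates of differentiating stem cells) from hanging drops at day 3, and embryoid bodies from spheroid plates at day 10, each with 5 libraries. The authors deposited 1 list of sites of 5 nt per day, with no value per library, so no difference between days could be set against replicate error, and day and culture format cannot be told apart. Intervals are at 95% throughout and reflect only the error of counting. Neighbouring sites of 1 gene share its RNA and are no replicates.

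SAM68 belongs to the STAR family of RNA-binding proteins, which recognise short motifs rich in A and U and take part in splicing, in the choice of last exons and polyadenylation sites, and in the handling of mature mRNA. The downstream end of a gene holds the signals for cleavage and polyadenylation, and in most genes the last exon with the 3′ UTR, where other proteins and microRNAs set the stability and translation of the mRNA. The day lists followed the stages of the culture: over its whole span Esrrb, a transcription factor of naive stem cells, had 39 sites on day 0, 1 on day 3 and 0 on day 10. Gata4, a factor of heart and endoderm, had 0, 4 and 111.

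A few of these sites can be shown with their sequence, because they also lie within the 300-nt start windows of neighbouring genes in the RefSeq table of GRCm38.p6. The 6 such positions used here lie in Sympk, Lamb2, Ndufa9 and Patz1. They are set by what the table covers and were not picked for their values. Each line gives 29 nt on the strand of the gene, 5′ to 3′, with the 5 nt of the site in capitals. Sympk is shown because its position was bound on each of the 3 days (chr7:19054538-19054566), Patz1, a zinc finger transcription factor, because its end sites were on day 0 and not on day 10 (chr11:3308877-3308905), and Lamb2, a laminin subunit, because its site lies almost as far from the end as that of Sympk (chr9:108490443-108490471). All 3 genes lie on the plus strand.
Sympk, 71 nt from the end, all days: gaggggaggggcGGGACggggcctcctgg
Lamb2, 73 nt from the end, day 0: gtcgccaagcacTGTTCtgcacacgatcg
Patz1, 192 nt from the end, day 0: tatggaagaaatAGTTTtatgcaaaattt

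The Sympk position lay in a run of G, while the Lamb2 and Patz1 positions had T in most of the 5 nt. Of the 6 positions, 0 held TAAA within the 29 nt, 0 held TTAA, 1 held TTTA and 0 held AATAAA, searched on the strand of the site. Among 111 other positions of the lists that also lay in a start window, 29.7% held TAAA, 33.3% TTAA, 35.1% TTTA and 0.901% AATAAA. Of the 32851 start windows themselves, the central 29 nt held these motifs in 8.97%, 7.85%, 9.21% and 1.09%. With 6 positions next to the start of another gene, these values describe the positions shown and not the other end sites.

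Sites were dense at the downstream end on every day. In genes of 10 kb or more with a site that day, the last 1 kb held 0.295 sites per kb on day 0, 0.305 on day 3 and 0.459 on day 10, against 0.0766, 0.0693 and 0.146 in the rest of the same genes. The ratio of the densities was 3.85 on day 0 (3.63 to 4.08), 4.40 on day 3 (4.15 to 4.66) and 3.15 on day 10 (3.02 to 3.28). With each gene compared only with itself, the ratios were smaller, 2.54 (2.39 to 2.70), 2.91 (2.75 to 3.09) and 2.43 (2.33 to 2.53). The first 1 kb of the same genes went the other way, with 0.0347, 0.0366 and 0.0630 sites per kb, 612 sites in all.

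The density climbed towards the end and then stopped short of it. On day 0 it was 0.0985 sites per kb of bound gene between 4.5 and 5 kb from the end, 0.172 between 1 and 1.5 kb, 0.199 between 900 and 1000 nt and 0.569 between 100 and 200 nt. The last 200 nt held 435 of the 1199 end sites of day 0 (36.3%), 406 of 1231 on day 3 (33.0%) and 773 of 2357 on day 10 (32.8%). Within that stretch the sites crowded into a narrow band: 338 sites of day 0 lay 50 to 149 nt from the end (28.2%), 316 of day 3 (25.7%) and 640 of day 10 (27.2%), with the fullest 25 nt at 75 to 99 nt on each day (121, 109 and 233 sites). The final 50 nt were almost empty, with 6, 8 and 7 sites. The band and the empty tail thus had the same place on the 3 days. The RNA had been trimmed to fragments of 50 to 200 nt. Whether sites so near the end could be detected was not tested, so the empty tail is not shown to lack binding. 

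**Figure D1:**
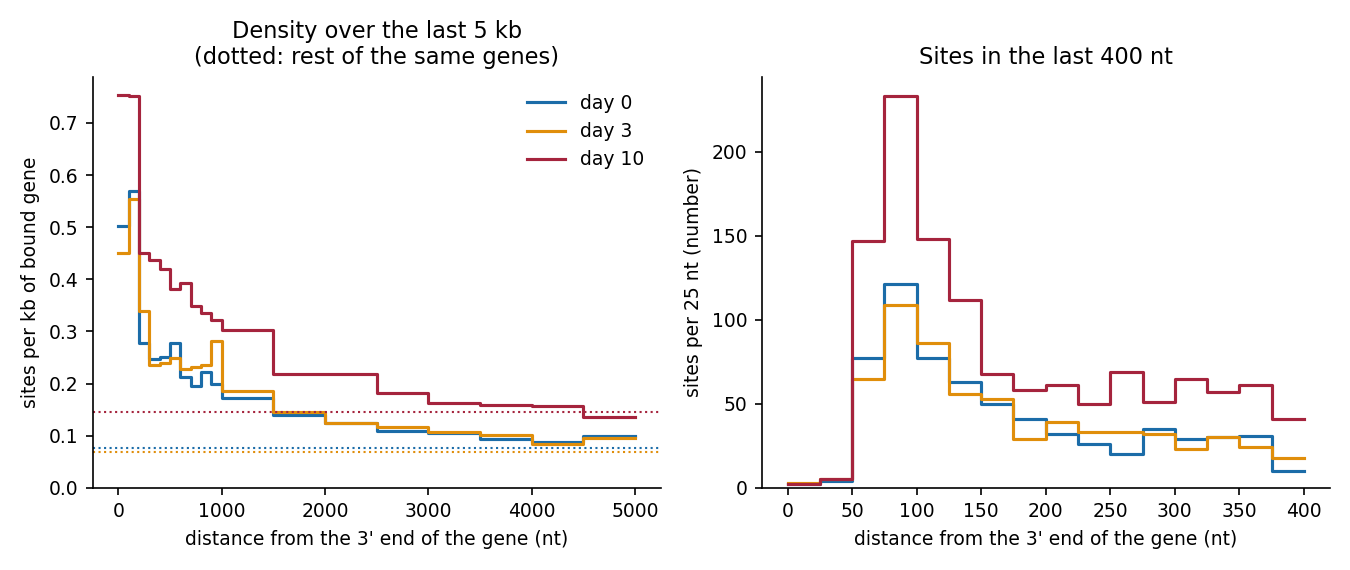
Left, sites per kb of bound gene against the distance from the annotated 3′ end in nt, in bins of 100 nt up to 1 kb and 500 nt beyond, 1 line per day, with dotted lines for the density in the rest of the same genes (0.0766, 0.0693 and 0.146). Right, the number of sites per 25 nt over the last 400 nt, where the 3 days share an almost empty stretch of 50 nt and a peak at 75 to 99 nt (121, 109 and 233 sites).

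Of all sites in these genes, 4.56% lay in the last 1 kb on day 0 (4.31 to 4.82), 4.85% on day 3 (4.59 to 5.12) and 3.42% on day 10 (3.29 to 3.56). The share on day 10 lay below both earlier days, and the intervals did not overlap. In the 2775 genes with a site on each of the 3 days, the shares were 3.97% (3.72 to 4.24), 4.35% (4.09 to 4.63) and 3.23% (3.08 to 3.39), in the same order. End sites were more numerous on day 10, but sites elsewhere in the genes outnumbered those of the earlier days by more. The day 10 list was the longest, with 74287 sites against 29740 and 28266, and its part in the share was not tested.

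The share was much smaller in longer genes. In genes of 10 to 20 kb the last 1 kb held 16.5% of sites on day 0, 19.2% on day 3 and 18.1% on day 10, and in genes above 200 kb 0.513%, 0.700% and 0.425%. The excess over the rest of the gene was present in every length class and was mostly smaller in longer genes. From the shortest to the longest of 5 classes, the density ratio on day 0 was 2.75, 2.85, 2.40, 1.92 and 2.00. On day 3 it was 3.31, 3.32, 2.61, 2.20 and 2.73, and on day 10 3.09, 2.71, 2.20, 1.74 and 1.70. It fell from class to class throughout on day 10, and on day 0 and day 3 it did so except at the first and the last step. Genes with an end site were accordingly shorter than all bound genes, with a median of 31.2 against 45.9 kb on day 0, 32.2 against 48.4 kb on day 3 and 34.6 against 48.8 kb on day 10.

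**Figure D2:**
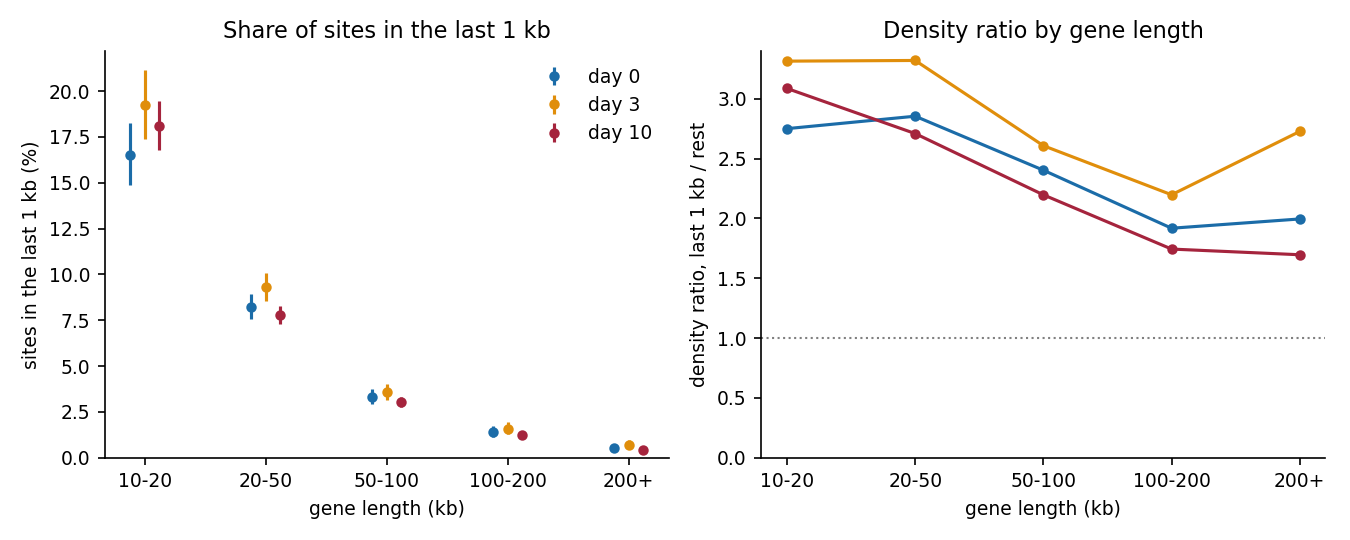
Left, percent of sites in the last 1 kb by gene length in kb and day, with exact binomial 95% intervals. Right, the density in the last 1 kb over that in the rest of the same genes, where the dotted line marks equal density and every point lies above it (1.70 to 3.32).

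At least 1 end site was found in 856 of 4061 bound genes on day 0 (21.1%), in 921 of 4040 on day 3 (22.8%) and in 1426 of 5131 on day 10 (27.8%). Most held a single one: 619 genes on day 0, 684 on day 3 and 861 on day 10, while 72, 58 and 225 held 3 or more. For 189 genes on day 0, 219 on day 3 and 231 on day 10 the end was the only bound place, and 33, 40 and 59 of these held at least 2 sites there. Of the 2091 genes, 296 had an end site on all 3 days (14.2%), 723 on day 10 alone, 298 on day 3 alone and 254 on day 0 alone. Of the genes with an end site on a single day, 111 of the 254 of day 0 alone (43.7%), 159 of the 298 of day 3 alone (53.4%) and 312 of the 723 of day 10 alone (43.2%) had sites somewhere on each day, beside 2775 of all 6193 genes.

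The genes with most end sites had varied roles. On day 0, Npepps, an aminopeptidase, held 6 end sites, followed by 1 on day 3 and 4 on day 10. Zfp936, a zinc finger protein, held 6, 0 and 0. Plagl1, an imprinted zinc finger transcription factor, held 5, 0 and 5 end sites, and Rbm25, a splicing factor, 5, 1 and 6. Suz12, a subunit of Polycomb repressive complex 2, held 5, 2 and 1, and Septin7, a GTPase of the septin cytoskeleton, 5, 3 and 2. Ap1ar, an adaptor of vesicle transport, held 4, 3 and 3 end sites out of 4, 4 and 7 in the whole gene, and Cdk16, a cyclin-dependent kinase, 4, 1 and 4 out of 6, 1 and 7. So in the last pair the end carried most of the binding, whereas the 5 end sites of Suz12 were a small part of 43.

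On day 3, the leading genes included Dnmt3b, an enzyme that sets new DNA methylation at the exit from naive pluripotency, with 0, 5 and 0 end sites. They lay 599, 333, 317, 160 and 69 nt from the end, between positions 153687129 and 153687663 of chromosome 2. All 20 of its sites were on day 3. Midn, midnolin, held 1, 5 and 3 end sites, Msn, the actin-membrane linker moesin, 2, 5 and 2, and Rhoa, the small GTPase of actin and contractility, 3, 5 and 6. Dkc1, the pseudouridine synthase dyskerin, held 2, 4 and 0, and all 6 of its sites over the 3 lists lay at the end. Etv5, an ETS transcription factor, held 3, 4 and 0, Hnrnpk, an RNA-binding protein, 0, 4 and 3, and Nono, a protein of paraspeckles, 2, 4 and 3. Of these 8 genes, Dnmt3b was the only one whose end was bound on no other day.

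On day 10, Eif4g1, the scaffold of the translation initiation complex, held 1, 1 and 8 end sites on the 3 days, and Rpe, an enzyme of the pentose phosphate pathway, 2, 3 and 8. Igf2, the imprinted growth factor, had no site of any kind on day 0 or day 3 and 24 sites on day 10, 7 of them at the end, 74 to 862 nt from it. Acbd3, a Golgi protein, held 0, 1 and 6 end sites, Ddx6, a helicase of mRNA decay, 1, 2 and 6, F2r, the thrombin receptor, 1, 0 and 6, and Hspd1, a mitochondrial chaperonin, 2, 2 and 6. No gene held more than 8 end sites on day 10, more than 5 on day 3 or more than 6 on day 0.

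In some genes the end held most of the sites. Where a gene had 10 sites or more in the 3 lists together, the end share could be ranked. Msn had the largest share at the end, 9 of 11 sites (81.8%), followed by Arf1, a small GTPase of the Golgi, with 8 of 10, Midn with 9 of 12, Brd2, a bromodomain protein of chromatin, with 7 of 10, Ap1ar with 10 of 15 and Cdk16 with 9 of 14. Gigyf1, a protein linked to translational repression, and Leng8 followed, with 12 of 20 and 9 of 15. Msn is 72.5 kb long, and 9 of its 11 sites lay in the last 1 kb.

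The same positions came back on several days in 139 genes. There were 155 end sites of day 0 that overlapped a site of day 3 and a site of day 10, and 13 genes had at least 2 of them. Gigyf1 held 4, in a pair 885 and 880 nt and a pair 658 and 653 nt from the end (chromosome 5, 137527048 to 137527057 and 137527275 to 137527284). Day 3 had a site within each pair at 882 and 657 nt, and day 10 had sites at 884, 879, 662 and 653 nt. Rhoa held 3, at 678, 410 and 98 nt from the end on day 0, at 679, 409 and 99 nt on day 3 and at 679, 409 and 99 nt on day 10. Overlap on the 3 days chose these positions, and Rhoa also had sites without a counterpart, at 348 nt on day 3 and at 990 and 209 nt on day 10.

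Ap1ar, Prrc2c, Setd5, Tardbp, Myh9 and Nono held 2 such positions each. Tardbp, which encodes the RNA-binding protein TDP-43 known to bind its own 3′ UTR, was bound 556 nt from the end on all 3 days and at 844, 844 and 845 nt (chromosome 4, 148612936 to 148612940 and 148613224 to 148613229). Nono was bound at 517, 516 and 515 nt and at 107, 111 and 111 nt. Setd5, a protein of chromatin, held 4, 3 and 3 end sites beside 67, 69 and 174 sites in the gene, and Myh9, a non-muscle myosin, 4, 2 and 3 beside 5, 11 and 21. Sympk, the scaffold protein symplekin of the cleavage and polyadenylation machinery, was bound 71 nt from the end on each day, at the G-rich sequence printed above, with neighbouring sites at 66 nt on day 3 and at 66 and 76 nt on day 10.

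**Figure D3:**
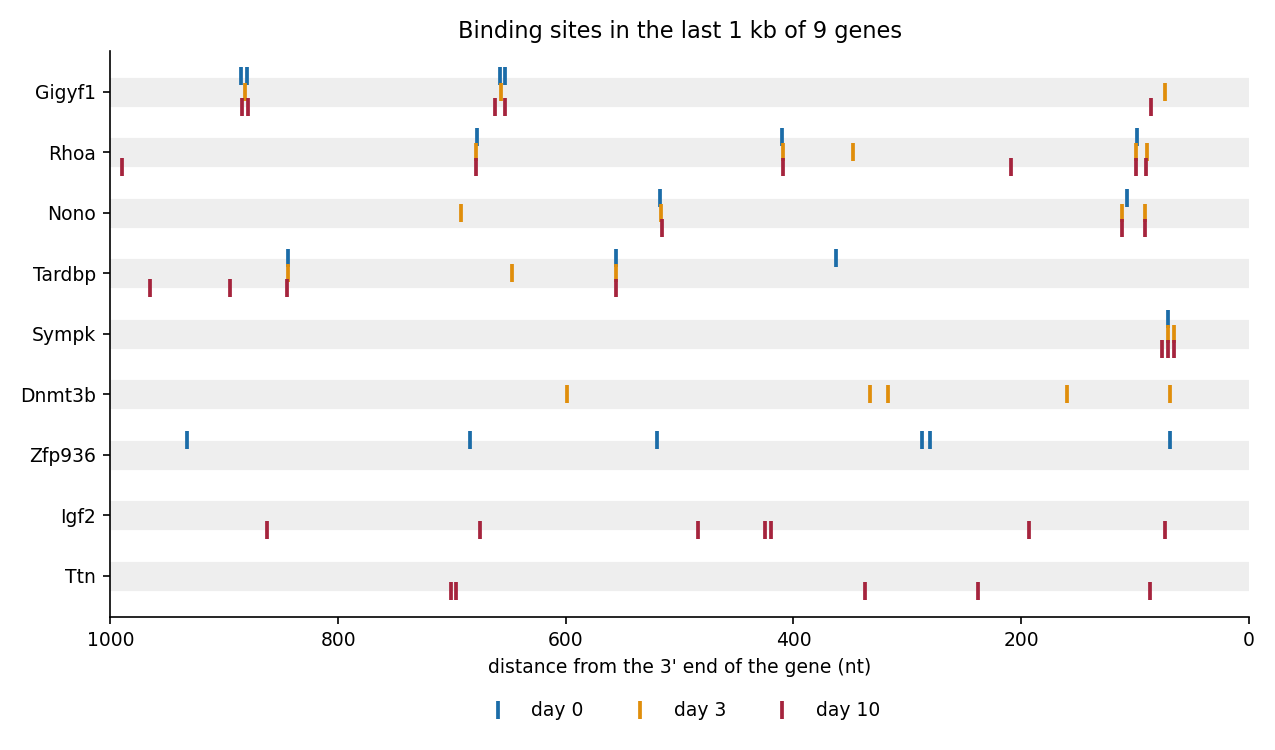
Sites in the last 1 kb of 9 genes against the distance from the annotated 3′ end in nt, 1 tick per site centre, with day 0 in the upper, day 3 in the middle and day 10 in the lower row of each gene. The ticks of Gigyf1, Rhoa, Nono and Tardbp line up between days at several places and those of Sympk at 71 nt, whereas Dnmt3b, Zfp936, Igf2 and Ttn have ticks of a single day.

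End sites recurred between days a little more often than the other sites of the same genes. Of the end sites, 36.4% of day 0 (33.7 to 39.2), 35.9% of day 3 (33.2 to 38.7) and 22.1% of day 10 (20.4 to 23.8) overlapped a site of either other day by at least 1 nt. Among the other sites of the same genes the shares were 30.3%, 33.9% and 16.0%, and among all sites in genes of 10 kb or more 30.9%, 32.7% and 14.9%. Compared within genes, the Mantel-Haenszel odds ratio was 1.20 on day 0 (1.02 to 1.42, 667 genes), 1.08 on day 3 (0.922 to 1.26, 702 genes) and 1.27 on day 10 (1.12 to 1.45, 1195 genes). On day 3 the interval included 1. For sites found on both other days the odds ratios were 1.37 (1.08 to 1.73), 1.23 (0.983 to 1.54) and 1.42 (1.16 to 1.75). Counted by gene, the recurrent share at the end was above that of the gene's other sites in 230, 235 and 318 genes and below it in 272, 322 and 545. A gene with 1 end site can only have 0% or 100% there, and the part of such genes in these counts was not tested. At the recurrence of their own other sites, 304, 336 and 388 end sites in these genes would have recurred, and 347, 348 and 456 did. For day 0 the odds ratio no longer excluded 1 when only other sites 1 to 5 kb from the end were used (1.17, 0.889 to 1.55).

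Because the end is dense on every day, overlap there is also more likely for that reason, so stretches of 1 kb with equal numbers of sites were compared. Where a stretch held exactly 1 site on day 0 and 1 on day 3, the 2 sites overlapped in 73 of 181 gene ends (40.3%, 33.1 to 47.9) and in 62 of 150 other stretches of the same genes (41.3%, 33.4 to 49.7). For day 0 and day 10 these shares were 44.8% (37.1 to 52.8) and 42.9% (35.1 to 51.1), and for day 3 and day 10 39.1% (31.8 to 46.8) and 37.0% (30.3 to 44.1). At equal numbers of sites, no difference in recurrence was therefore detectable, and the intervals are wide. The share of occupied stretches that held a site again on another day did differ. For this share, stretches were not matched on their number of sites, and the end was denser on every day. The part of density in this difference was not tested. A gene also counted as bound on the other day when its only site then lay at the end. Genes bound only at the end add no other stretches to the comparison. This selection can raise the share of gene ends by itself, and its part was not tested either. Of gene ends with a site on day 0, in genes also bound on day 3, 59.1% had a site on day 3 (55.3 to 62.8), against 1794 of the 4600 other occupied stretches of the same genes (37.6% to 40.4%). From day 0 to day 10 the shares were 69.7% and 54.1%, from day 10 to day 0 47.8% and 29.6%, and from day 3 to day 10, where they were closest, 64.3% (60.9 to 67.7) and 58.7% (57.3 to 60.1). The nearest day 10 site to a day 0 end site, where both days had one, was at a median of 8 nt, and for day 3 it was at 34 nt. From a day 10 end site, the nearest in the shorter lists of day 0 and day 3 lay at medians of 51.5 and 61 nt.

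Sites at the end also lay closer together. Another site of the same day within 50 nt was found for 11.8% of end sites on day 0 (9.99 to 13.7), 135 of 1231 on day 3 (9.28% to 12.8%) and 17.1% on day 10 (15.6 to 18.7), against 9.29%, 6.56% and 13.6% of the other sites of the same genes and 8.02%, 6.03% and 12.3% of all sites in genes of 10 kb or more. Within genes the odds ratio was 1.35 on day 0 (1.04 to 1.74), 1.75 on day 3 (1.33 to 2.31) and 1.36 on day 10 (1.18 to 1.56). Counted by gene, the share with a neighbour was higher at the end in 52, 50 and 155 genes and lower in 166, 140 and 464. On day 0 the odds ratio was 0.866 (0.561 to 1.34) against the sites 1 to 5 kb from the end, so there the direction depended on which other sites were used. In genes of 50 kb or more none of the 3 intervals excluded 1 (1.24, 1.49 and 1.11). Neighbouring sites were mostly pairs: chains of at least 3 sites with gaps of up to 50 nt numbered 4 on day 0, 0 on day 3 and 7 on day 10. They held 1.00% of end sites on day 0 and 0.891% on day 10, against 0.487%, 0.230% and 1.14% of the other sites of the same genes on day 0, day 3 and day 10, so chains were not more frequent at the end on day 3 or day 10. Those of day 10 included chains in Ccdc50, Ddb1, Eif4g1, Rnf10, Sympk and Ywhab, and those of day 0 in Chmp4b, Set, Tmem87a and Zfp640.

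At equal numbers of sites the difference in spacing was clearest on day 3. Of gene ends with exactly 2 sites, the 2 lay within 50 nt of each other in 45 of 179 on day 3 (25.1%, 19.0 to 32.2), against 106 of 895 other stretches of the same genes with 2 sites (11.8%, 9.80 to 14.1). On day 10 the shares were 21.2% (17.0 to 25.9) and 15.5% (14.3 to 16.8), and on day 0 20.6% (14.7 to 27.6) and 13.9% (11.8 to 16.3), where the intervals overlapped. Over the other stretches of all genes of 10 kb or more the shares were 17.9%, 14.7% and 16.7% on day 0, day 3 and day 10. Stretches were matched on the number of sites and not on their placement. Of all end sites, 28.2%, 25.7% and 27.2% on the 3 days lay in the band 50 to 149 nt from the end. The part of this band in the spacing was not tested.

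**Figure D4:**
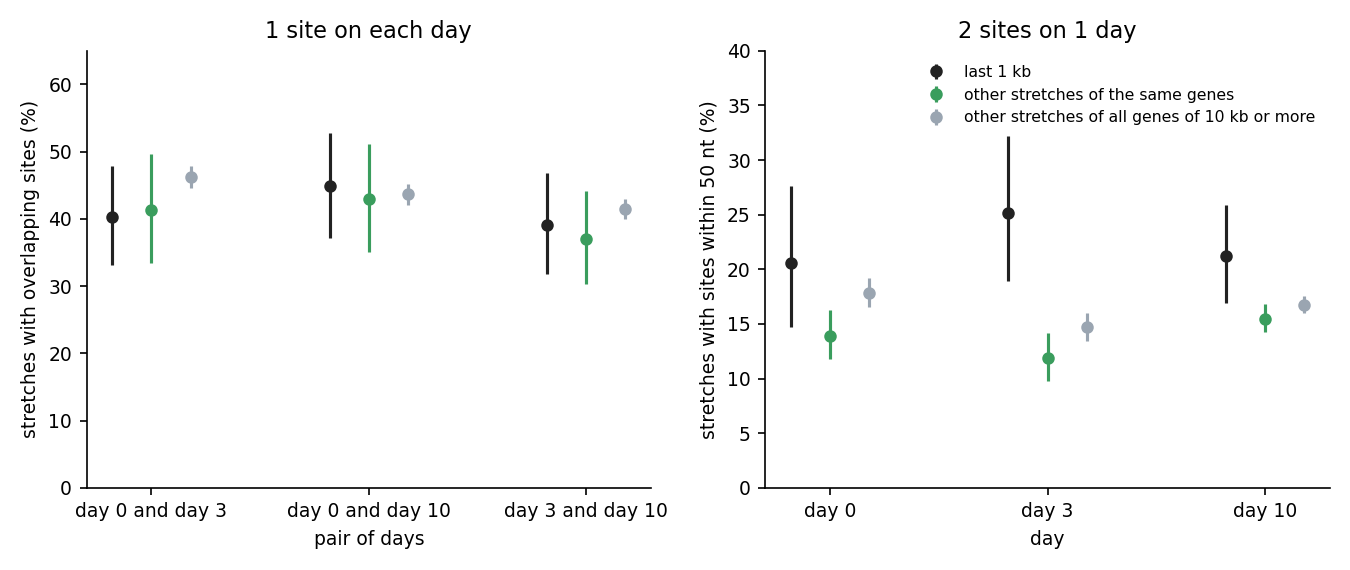
Left, percent of 1 kb stretches with exactly 1 site on each of 2 days in which the 2 sites overlap, by pair of days. Right, percent of stretches with exactly 2 sites on a day in which they lie within 50 nt. Points are shares and bars exact binomial 95% intervals. On the right, the interval of the end stretch lies above those of both other kinds of stretch on day 3 (25.1% against 11.8% and 14.7%). On day 10 it lies above that of the same genes only (21.2% against 15.5%). On the left the intervals overlap.

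For single genes, the numbers at the end were too small for many differences between days to be told from counting error. A gene's end was called when the interval of the ratio of its shares of the 2 lists excluded 1. Between day 0 and day 3, 1 of 1368 genes was called, with a smaller share on day 3 (Zfp936), and 0 with a larger one, while over the whole gene 4.66% of 5003 genes were called larger and 4.84% smaller. For day 10 against day 0, 22 of 1793 were called smaller (1.23%) and 0 larger, against 11.3% and 8.78% of genes over all their sites, and for day 10 against day 3, 15 of 1837 smaller (0.817%) and 0 larger, against 9.27% and 6.79%. The thresholds differed by direction because the lists differ in length. A gene with no end site on day 0 needed 11 on day 10 to be called larger, more than any gene held, whereas 3 on day 0 and none on day 10 sufficed for smaller.

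Among the 22 genes with a smaller end share on day 10 than on day 0, 20 had no end site left on day 10, among them Zfp936 with 6 on day 0, and Mybl2, a transcription factor of proliferating cells, Uhrf1, a partner of maintenance DNA methylation, Zfp42, a marker of naive stem cells, and Zfp808, each with 4. Of the 22, 7 were Zfp zinc finger genes, a family that made up 2.73% of the 1793 genes, a grouping noticed after the values were seen. In 20 of the 22 the whole gene held a smaller share too. The whole gene includes the end sites, so these calls are not independent. In Uhrf1 (4 and 0) and Plk1 (3 and 0) all sites of the gene on these days were end sites. The exceptions among the 22 were Slmap and Septin7, whose whole-gene ratios were not called. The end of Slmap went from 3 to 0 sites and the gene from 22 to 38, a ratio of shares of 0.691 (0.399 to 1.23). The end of Septin7 went from 5 to 2 sites and the gene from 15 to 52, a ratio of 1.39 (0.769 to 2.65). Between day 3 and day 10 the called genes included Dnmt3b (5 and 0), Dkc1, Etv5 and Rictor (4 and 0 each) and Arid2, a subunit of a chromatin remodelling complex (3 and 0). Rictor, a component of mTOR complex 2, had 17 and 35 sites in the whole gene, in lists of 28266 and 74287 sites. Its whole-gene ratio of shares was not called (0.783, 0.427 to 1.49).

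Most bound genes of the machinery that forms 3′ ends held sites at their own 3′ end. So did most of the pluripotency list (61.1%) and of the list of 3′ UTR binding proteins (55.2%). These shares were not matched for sites per gene or for gene length. The lists held, in this order, 577 sites in 16 genes, 544 in 18 and 2036 in 29, against 120497 in 6193 in all. Of 21 factors of 3′ end formation listed, 16 were bound genes of 10 kb or more. Of these, 10 had an end site (62.5%), against 2091 of 6193 genes in all (33.8%). The end held 39 of the 577 sites of the 16 genes (6.76%), against 3.97% in all genes. The 10 genes with an end site were 11.9 to 63.4 kb long. Among all genes of 20 to 50 kb the end held 8.21%, 9.32% and 7.80% of sites on the 3 days. Among those of 50 to 100 kb it held 3.31%, 3.57% and 3.03%. The list held 10, 8 and 21 end sites on the 3 days. Cpsf7, a subunit of cleavage factor I, held 4, 2 and 5 end sites out of 5, 6 and 9 in the gene, Pabpc1, the cytoplasmic poly(A)-binding protein, 3, 1 and 5 out of 17, 18 and 27, and Cpsf6, another subunit of cleavage factor I, 1, 1 and 2 out of 16, 24 and 40. Sympk held 1, 2 and 3 out of 1, 2 and 4, so 6 of its 7 sites were at the end. Papola, the poly(A) polymerase, held 0, 1 and 1 out of 27, 19 and 41. The genes bound most at the end were therefore not the ones with most sites overall.

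Of 33 proteins that bind 3′ UTRs or act in silencing, 29 were bound genes and 16 had an end site (55.2%). They held 13, 11 and 31 end sites on day 0, day 3 and day 10. These were 2.70% of the list's 2036 sites, below the 3.97% of all genes. Igf2bp1, which binds and protects mRNAs, held 3, 2 and 4 end sites, Igf2bp2 held 2, 1 and 3, Khsrp, a protein of AU-rich elements, 3, 1 and 3 out of 4, 1 and 4, and Msi2, a translational regulator, 2, 2 and 3 out of 39, 91 and 160. Qk, another STAR protein, held 2, 0 and 2 out of 81, 28 and 125. The list of SAM68 targets in splicing or last exon choice had 9 bound members and 2 with an end site, Khdrbs1 itself and Sgce, a sarcoglycan, with 0, 0 and 1 each.

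Of the pluripotency list, 18 genes were bound and 11 had an end site (61.1%), with 12, 9 and 6 end sites against 277, 149 and 118 sites in these genes. Zfp42 held 4, 1 and 0, Tbx3, a T-box factor, 3, 0 and 2, Tet2, which oxidises methylated cytosine, 2, 0 and 0, Klf5, a factor of the naive network, 2, 0 and 0, and Lifr, a receptor subunit for LIF, 0, 0 and 2. Of the cardiac and mesodermal list, 22 were bound and 9 had an end site (40.9%), with 2, 1 and 17 end sites against 113, 47 and 1682 sites. The end thus held 1.09% of the sites of these genes, below the 3.97% of all genes, and their spans include very long ones such as Ryr2, the calcium release channel, at 554 kb, with 2 end sites of 87 on day 10. Ttn, titin, held 5 end sites of 35 on day 10, 87, 238, 337, 696 and 701 nt from the end (chromosome 2, 76704065 to 76704683), and none on day 0 or day 3. Gata6, a factor of heart and endoderm, held 3 end sites on day 10, Palld, an actin organiser, 2, and Tpm1, tropomyosin, 1 on each day while the whole gene went from 1 to 10 to 53 sites. The numbers per list are small, and no test was made on them.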

How the data were processed

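Sites were called by the authors and deposited as 1 list per day. Per the file headers, they were assigned to genes and sites in overlapping genes were removed. The deposited score is 0 for every site and was not used. The submitters' processing notes name STAR 2.7.11a, UMI-tools 1.1.6 and GRCm38.p5, without roles. For the site caller and for how the 5 libraries were pooled, the sources used here give nothing. Crosslink counts were not analysed here, so depth is unknown.

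Gene spans came from a RefSeq table of GRCm38.p6, matched by position: a protein-coding ID took the gene that contained 80% or more of its sites. This named 7060 of 7380 IDs (95.7%). The strand, taken from the sites, equalled that in the table of start windows in 5014 of 5019 genes. A further 106 sites up to 1 kb beyond a RefSeq end, and 1659 end sites of genes under 10 kb, were not members. The last 1 kb overlapped another RefSeq gene in 841 of 6193 genes (13.6%), of which 29.6% held an end site, against 34.4% of the others.

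Shares have exact binomial intervals, ratios of densities or shares exact conditional binomial intervals, and odds ratios, with gene as stratum, Robins-Breslow-Greenland intervals, all at 95%. Named genes are the 8 with most end sites per day, with most positions on all days and with the largest end share among genes with at least 10 sites, up to 5 called per pair of days and direction, and members of 5 gene lists, from which examples are given. Ties were taken alphabetically. The values of 1 gene that the rule names are not reported here. Members and lists were chosen with earlier results of these data known. The stretches of equal site number were added after the data were seen. The main steps for shares, densities, recurrence, clustering and calls of single genes were run on sites simulated with a set density and recurrence. No set clustering was simulated, and the outcome is not given here. The comparisons of 1 kb stretches and the density with each gene compared only with itself were not run on simulated data. Python 3.11.15, NumPy 2.4.6, pandas 2.3.3, SciPy 1.17.1 and matplotlib 3.10.9 were used.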

Additional observations from a re-analysis of the deposited data

How the results depend on the processing

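No paired analysis was possible because the lists hold no values for single libraries, and for the same reason no library could be left out. The density ratio exceeded 1 under all 24 alternatives. The clustering odds ratio kept both its direction and its interval's side of 1 under 25 of 33 alternatives. For recurrence this held under 26 of 33, counting as kept those of day 3, where the interval included 1 throughout. There the odds ratio of 1.08 went below 1 for the last 2 kb (0.971) and for genes of 50 kb or more (0.923).

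Shares on day 0, day 3 and day 10 were 2.85%, 2.90% and 2.10% for the last 500 nt, 6.96%, 7.48% and 5.37% for the last 2 kb, 5.84%, 6.29% and 4.49% for genes of any length, and 1.96%, 2.07% and 1.54% for genes of 50 kb or more. Genes called for day 3 against day 0, day 10 against day 0 and day 10 against day 3 were 0, 7 and 5 for the last 500 nt and 5, 45 and 27 for the last 2 kb. In genes of 50 kb or more, 7 and 7 were called for the pairs with day 10.

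The interval of the recurrence odds ratio of day 0 included 1 for the last 500 nt (1.17), the last 2 kb (1.13), genes of 50 kb or more (1.25), identical 5 nt (1.22), other sites 1 to 5 kb from the end (1.17) and without genes whose end overlaps another gene (1.19), and that of day 10 for genes of 50 kb or more (1.14). The interval of the clustering odds ratio included 1 for genes of 50 kb or more (1.24, 1.49 and 1.11), on day 0 for genes of any length (1.24), for neighbours 11 to 50 nt away on day 0 (1.16) and day 10 (1.17), and for other sites 1 to 5 kb from the end on day 3 (1.56). With those other sites it turned to 0.866 on day 0. The comparisons with other sites 1 to 5 kb from the end, with neighbours 11 to 50 nt away and without overlapping ends were chosen after seeing the data. So was the density ratio with each gene compared only with itself. The cause was not tested. The planned motif search around all sites was not run for want of a genome. Depth is unknown, so a gene without end sites has no floor.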
